A study of Mus musculus with 8 samples.

Results

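The denervation response genes described here are Hdac4, Hdac9, Dach2, Runx1, Ncam1 and Gadd45a, 6 of the 16037 genes with a tested probe. They were followed in tibialis anterior, a fast muscle at the front of the shin, with every non-control probe that the array names for them. There were 25 such probes among 56605 distinct probes on the array. The genes were taken by name, for what is known of them in muscle that has lost its nerve, with earlier results of these data known; the rule itself uses no measured value. No nerve injury is named in the labels.

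RNA came from male C57BL/6J mice aged 14 weeks, and all of them ate a high-fat diet, per the labels' protocols. The 4 samples of the P. gingivalis group came from mice given Porphyromonas gingivalis, an anaerobic bacterium of the gum pocket, by feeding needle in 100 µL of saline over 6 weeks from the age of 8 weeks. The 4 control samples came from mice of the same strain, sex and age. The bacterial dose and what the controls were given are not stated in the sources used here. The question of the comparison is how the muscle transcriptome stands after the bacterium was given by mouth. The labels do not say outright that each sample is 1 mouse, so p-values may measure only the spread between samples.

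The group labels themselves are in doubt. When columns of the deposited value table were paired with arrays by their values, 4 of the 8 had a partner array from their own group and the other 4 from the opposite group. Its control columns were paired with control 1, control 2, P. gingivalis 1 and P. gingivalis 2, and its P. gingivalis columns with the other arrays. Each group of the value table thus mixes both scanner groups evenly. A difference between the scanner groups tends to cancel under that grouping by design. The grouping used below is that of the scanner files, and control 1, control 2, P. gingivalis 3 and P. gingivalis 4 are the arrays on which both sources agree about the group. Row 1 of the slide held the controls and row 2 the other arrays, so group and slide row cannot be told apart. Controls were also brighter before scaling, with a 75th percentile of the processed signal of 275 to 306 against 238 to 255. Arrays correlated at 0.991 to 0.995 with each other over tested probes. Muscle fibre markers such as Acta1 and Ckm were well above background on the arrays for 7 of 7 listed genes.

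A motor nerve keeps its muscle fibres electrically active, and that activity holds a set of fibre genes in check. When the nerve is lost, the class IIa histone deacetylase HDAC4 accumulates and represses Dach2, which frees the transcription factor myogenin and, with it, acetylcholine receptor genes. In denervated muscle Hdac4, Runx1, Ncam1 and Gadd45a are known to rise, and Dach2 and the short form of Hdac9 to fall.

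The probes that carry the results are shown next, 5′ to 3′, with positions on the mouse mm9 build as the scanner files give them. Each probe is 60 bases long and is printed whole or by its first 30 bases. The first 6 are the brightest tested probes of the 6 genes, whose values are given array by array. The other 5 are the remaining Hdac9 probes, since the Hdac9 probes differed among themselves. Exon, intron and UTR annotation on this build was not used here.
Hdac4 A_66_P115517 (chr1:93825715-93825774, minus strand): tccactaaggagatgccatttcccaatctg
Hdac9 A_55_P1970755 (chr12:35056405-35056464, minus strand): ggtgatctcttgttttgtgttgtaaatata
Dach2 A_55_P1956534 (chrX:110949122-110949181, plus strand): catcatggagttatttcagttgtgtttatc
Runx1 A_55_P2746444 (chr16:92602576-92602635, minus strand): tccctctttcagccaggtcggtatagccaa
Ncam1 A_55_P2050602 (chr9:49323381-49323440, minus strand): ctgtgtattagtacagtccgtacaccatgt
Gadd45a A_51_P296608 (chr6:66985376-66985435, minus strand): aagggacaaaaactacaaagcactgcaaga
Hdac9 A_55_P2497024 (chr12:34732448-34732507, minus strand): gcccattttgtgttttctactgatttcctc
Hdac9 A_51_P255467 (chr12:34735842-34735901, minus strand): gtgatgccactgaattcccaggtcttagaa
Hdac9 A_55_P2065074 (chr12:34792084-34792143, minus strand): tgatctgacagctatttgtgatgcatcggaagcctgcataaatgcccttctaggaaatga
Hdac9 A_51_P204031 (chr12:35074257-35074316, minus strand): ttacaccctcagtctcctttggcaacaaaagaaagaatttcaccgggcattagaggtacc
Hdac9 A_55_P2733412 (chr12:35119285-35119344, minus strand): agaaggtcctgacaacactctacacagcct

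The short transcript of Hdac9 (transcript variant 2 in the array's annotation) encodes MITR, a form that lacks the deacetylase domain. Transcript variant 1 encodes a long form. The probe A_55_P2497024, named for variant 1, lies 324 kb downstream of the variant 2 probe A_55_P1970755 along the gene. The other probes named for variant 1, A_51_P255467 and A_55_P2065074, lie 321 kb and 264 kb downstream of it. A_51_P204031 lies 17.9 kb upstream of the variant 2 probe and is annotated to both variants, and A_55_P2733412 is named for a clone whose product is the MEF2-interacting repressor.

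The 6 genes were divided between higher and lower values in the P. gingivalis arrays. Signals are given as log2 of the processed signal relative to the array's 75th percentile, and differences are P. gingivalis minus control. Of the 25 probes 19 were tested, meaning that a signal well above background was seen in 4 or more arrays. Of the 6 others, 5 were well above background on no array and the Hdac4 probe A_55_P2720645 on control 1 alone. Among the 19, 10 were higher and 9 lower, with a median difference of 0.022 against −0.016 over all 31649 tested probes, of which 14471 were higher. After limma with Benjamini-Hochberg adjustment none of the 19 reached 0.05, with adjusted p from 0.309 to 0.973, and neither did any of the other tested probes (0.0%; the lowest adjusted p was 0.281). At an unadjusted p under 0.05 limma called 1 of the 19 probes (5.26%), against 3544 of all tested probes (11.2%). In 1 of the 19 the 4 control and 4 P. gingivalis values did not overlap (5.26%), against 6.67% of all tested probes. It was the same probe, Hdac9 A_55_P2497024. For the brightest probe of each gene, groups were apart in 0 of 6 genes, against 7.06% of all genes. Each of these shares was below or equal to that of all tested probes or genes.

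**Figure D1:**
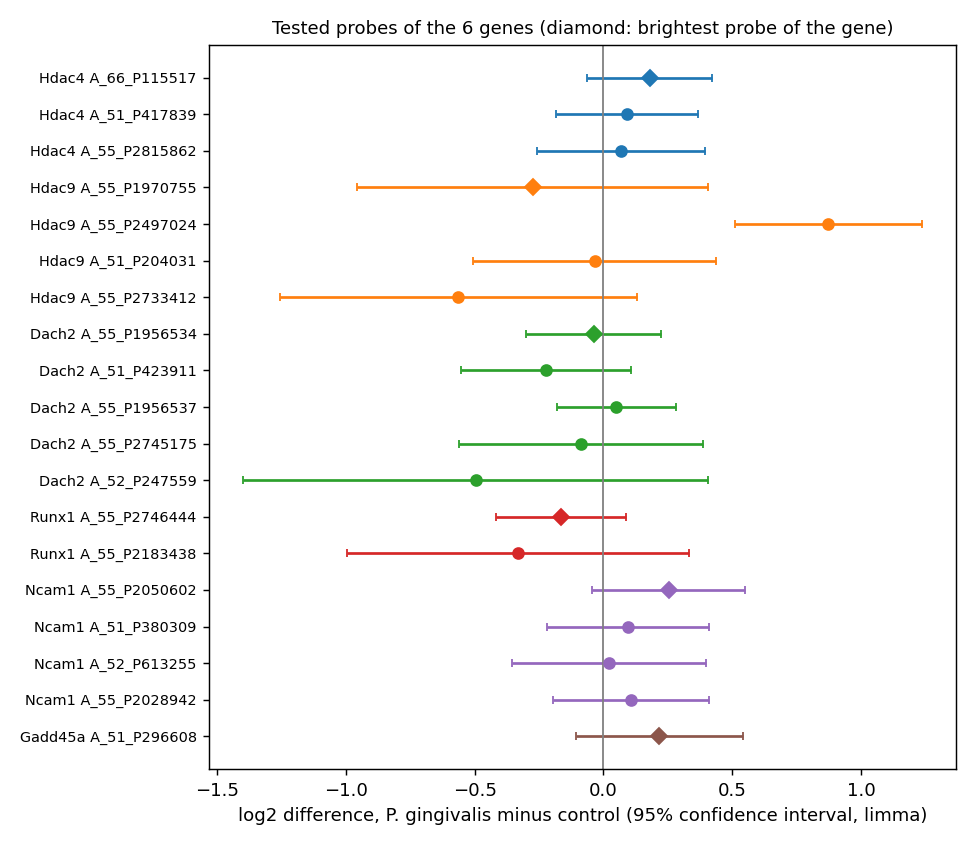
Log2 difference (P. gingivalis minus control) of each of the 19 tested probes, with its 95% confidence interval from limma, 4 arrays a group; diamonds are the brightest probe of a gene. The interval of 1 probe, Hdac9 A_55_P2497024, lies wholly on 1 side of 0, and the other 18 include 0.

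Hdac4 encodes the class IIa deacetylase that carries the denervation signal to chromatin. Its brightest probe, A_66_P115517, read 1.27, 1.54, 1.11 and 1.15 in controls 1 to 4. In P. gingivalis 1 to 4 it read 1.39, 1.32, 1.55 and 1.52. Control 2 lay among the P. gingivalis arrays, and the other 3 controls lay below all of them. The means were 1.26 ± 0.19 and 1.44 ± 0.11 (SD, n = 4 each), a difference of 0.18 ± 0.11 (SE) or 1.13-fold (95% confidence interval 0.958 to 1.34; limma adjusted p = 0.549). The other tested Hdac4 probes, A_51_P417839 and A_55_P2815862, differed by 0.093 and 0.069 in the same direction (limma adjusted p = 0.795 and 0.879). Without control 2 the difference of A_66_P115517 was 0.27 (limma adjusted p = 0.498), and under the value table's grouping it was −0.049. Because whole muscle was measured, for this gene and the others fewer cells of a type and less RNA per cell cannot be told apart.

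The differences of the 4 tested Hdac9 probes ranged from −0.56 to 0.87, the widest range among the 6 genes. The variant 2 probe, A_55_P1970755, read −1.95, −1.79, −3.32 and −2.36 in controls 1 to 4 and −2.59, −2.67, −2.74 and −2.52 in P. gingivalis 1 to 4. The controls were widely spread, with 3 of them above and 1 below all P. gingivalis arrays. The means were −2.35 ± 0.69 and −2.63 ± 0.10 (SD, n = 4 each), a difference of −0.27 ± 0.30 (SE; limma adjusted p = 0.745). Single controls moved that value: it was −0.60 without control 3 (limma unadjusted p = 0.00332, adjusted p = 0.265), −0.14 without control 1 and −0.086 without control 2 (limma adjusted p = 0.916 and 0.945).

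The variant 1 probe A_55_P2497024 went the other way. It read −4.62, −4.28, −4.52 and −4.04 in controls 1 to 4. In P. gingivalis 1 to 4 it read −3.43, −3.37, −3.32 and −3.85. Every P. gingivalis array was above every control array. The means were −4.36 ± 0.26 and −3.49 ± 0.24 (SD, n = 4 each), so the probe was 1.83-fold brighter in the P. gingivalis arrays (95% confidence interval 1.42 to 2.35; log2 difference 0.87 ± 0.16 SE). The limma unadjusted p was 0.000493, and the adjusted p over all tested probes, 0.309, did not pass. The size depended on the processing: the log2 difference was 0.35 under normexp background correction, where it passed (limma adjusted p = 0.0491). Under that correction the median over all tested probes was 0.049, against −0.016 without it. The share at an unadjusted limma p under 0.05 was then 28.7%, against 11.2%. In the value table with its columns paired to arrays the difference of A_55_P2497024 was 0.40 (limma adjusted p = 0.165). The probe was dim, with processed signals before scaling of 11.8 to 18.6 in the controls and 17.3 to 24.8 in the P. gingivalis arrays. Before scaling, P. gingivalis 4 therefore lay below control 4.

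The remaining Hdac9 probes gave other values. A_51_P255467 and A_55_P2065074, named for the same variant 1, were well above background on none of the 8 arrays, so no second measurement of that variant alone was had. A_51_P204031, annotated to both variants, lay between −4.49 and −3.71 in controls and between −4.58 and −3.90 in P. gingivalis arrays, a difference of −0.035 (limma adjusted p = 0.964). A_55_P2733412, the probe of the repressor clone, lay between −4.68 and −3.51 and between −5.06 and −4.37, a difference of −0.56 ± 0.30 (SE, limma adjusted p = 0.513). It was well above background on 4 control and 2 P. gingivalis arrays. Under normexp background correction A_51_P204031 and A_55_P2733412 turned to 0.18 and 0.040 (limma adjusted p = 0.0716 and 0.681).

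**Figure D2:**
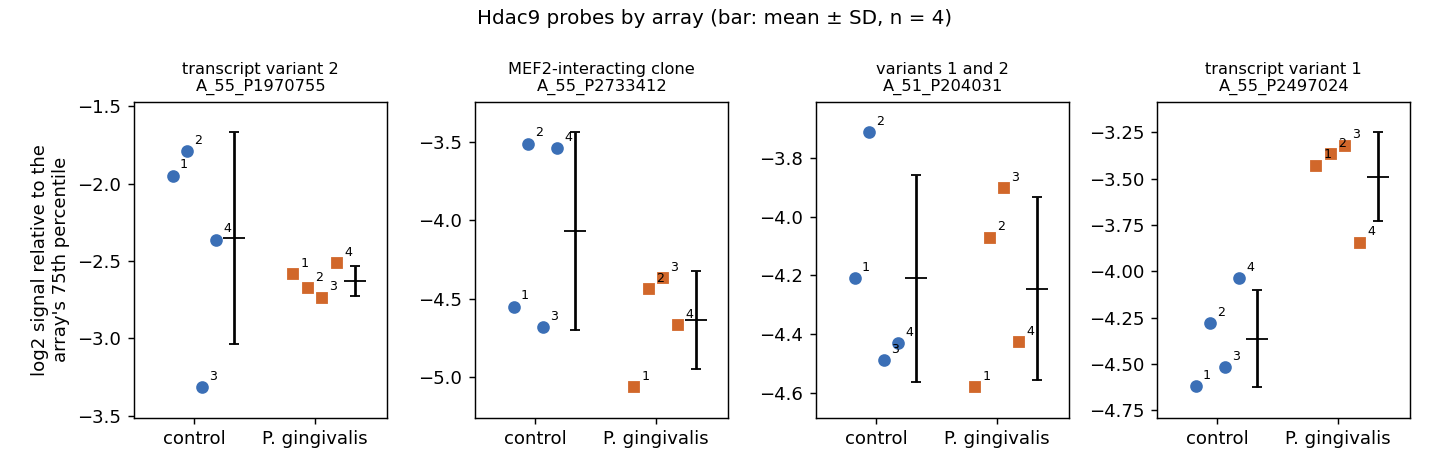
Log2 signal relative to the array's 75th percentile for the 4 tested Hdac9 probes in 4 control (circles) and 4 P. gingivalis arrays (squares), numbered by array, with mean ± SD; each panel has its own vertical scale. The probe of transcript variant 1 alone has all P. gingivalis arrays (−3.85 to −3.32) above all controls (−4.62 to −4.04).

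The balance of the Hdac9 probes within each array was also read, a comparison chosen after the values were seen and so given with no test. The log2 signal of A_55_P2497024 less that of the variant 2 probe was −2.67, −2.49, −1.20 and −1.67 in controls 1 to 4. It was −0.84, −0.69, −0.59 and −1.33 in P. gingivalis 1 to 4, and control 3 lay among the P. gingivalis arrays. Less the repressor clone probe A_55_P2733412, the signal of A_55_P2497024 was −0.072, −0.77, 0.16 and −0.49 in controls 1 to 4. In P. gingivalis 1 to 4 that balance was 1.63, 1.07, 1.04 and 0.82, above every control. Both of those probes were dim. The difference of A_55_P2497024 turned on the group labels: on the 4 arrays whose group both sources share it was 0.87 (limma adjusted p = 0.516), and under the value table's grouping it was −0.0050.

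Dach2 encodes a nuclear corepressor that holds myogenin down in innervated fibres. Its brightest probe, A_55_P1956534, read −0.37, −0.42, −0.40 and −0.44 in controls 1 to 4 and −0.40, −0.75, −0.16 and −0.48 in P. gingivalis 1 to 4. The controls lay within a narrow band, with P. gingivalis 2 and 4 below that band and P. gingivalis 3 above it. The means were −0.41 ± 0.030 and −0.45 ± 0.24 (SD, n = 4 each), a difference of −0.038 ± 0.11 (SE) or 0.974-fold (95% confidence interval 0.812 to 1.17; limma adjusted p = 0.922). Of the other 4 Dach2 probes, all tested, 1 was higher (0.050) and 3 were lower (−0.086 to −0.50), with limma adjusted p of 0.580 or more. Without P. gingivalis 2 the difference of A_55_P1956534 turned to 0.062.

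Runx1 encodes a transcription factor that is low in innervated muscle and limits wasting after denervation; blood cells make it too. Its brightest probe, A_55_P2746444, read −2.00, −2.11, −2.21 and −2.02 in controls 1 to 4. In P. gingivalis 1 to 4 it read −1.93, −2.38, −2.33 and −2.36. P. gingivalis 1 was above all controls and the other 3 P. gingivalis arrays were below all controls. The means were −2.09 ± 0.10 and −2.25 ± 0.21 (SD, n = 4 each), a difference of −0.16 ± 0.11 (SE) or 0.893-fold (95% confidence interval 0.749 to 1.06; limma adjusted p = 0.598). Without P. gingivalis 1 it was −0.27 (limma unadjusted p = 0.00766, adjusted p = 0.436). A_55_P2183438 differed by −0.33 in the same direction (limma adjusted p = 0.683) and A_55_P2907714 was well above background on no array.

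Ncam1 encodes a surface adhesion molecule that spreads along the fibre after denervation; Schwann and satellite cells carry it as well. Its brightest probe, A_55_P2050602, read −1.91, −2.44, −2.19 and −2.01 in controls 1 to 4 and −2.07, −1.72, −1.95 and −1.78 in P. gingivalis 1 to 4. Controls 1 and 4 lay among the P. gingivalis arrays, and controls 2 and 3 lay below them. The means were −2.14 ± 0.23 and −1.88 ± 0.16 (SD, n = 4 each), a difference of 0.25 ± 0.13 (SE) or 1.19-fold (95% confidence interval 0.971 to 1.46; limma unadjusted p = 0.0840, adjusted p = 0.497). It was 0.15 without control 2 and 0.053 under the value table's grouping. The other 3 tested Ncam1 probes were also higher, by 0.022 to 0.11.

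Gadd45a encodes a stress-induced nuclear protein that promotes fibre atrophy. Its only tested probe, A_51_P296608, read 1.16, 1.60, 1.58 and 1.20 in controls 1 to 4. In P. gingivalis 1 to 4 it read 1.90, 1.53, 1.44 and 1.54. P. gingivalis 1 stood above all the others, and the other 3 P. gingivalis arrays lay between the low and the high pair of controls. The means were 1.39 ± 0.24 and 1.60 ± 0.20 (SD, n = 4 each), a difference of 0.22 ± 0.14 (SE) or 1.16-fold (95% confidence interval 0.929 to 1.46; limma adjusted p = 0.586). Without P. gingivalis 1 it was 0.12, and under the value table's grouping it was −0.11.

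**Figure D3:**
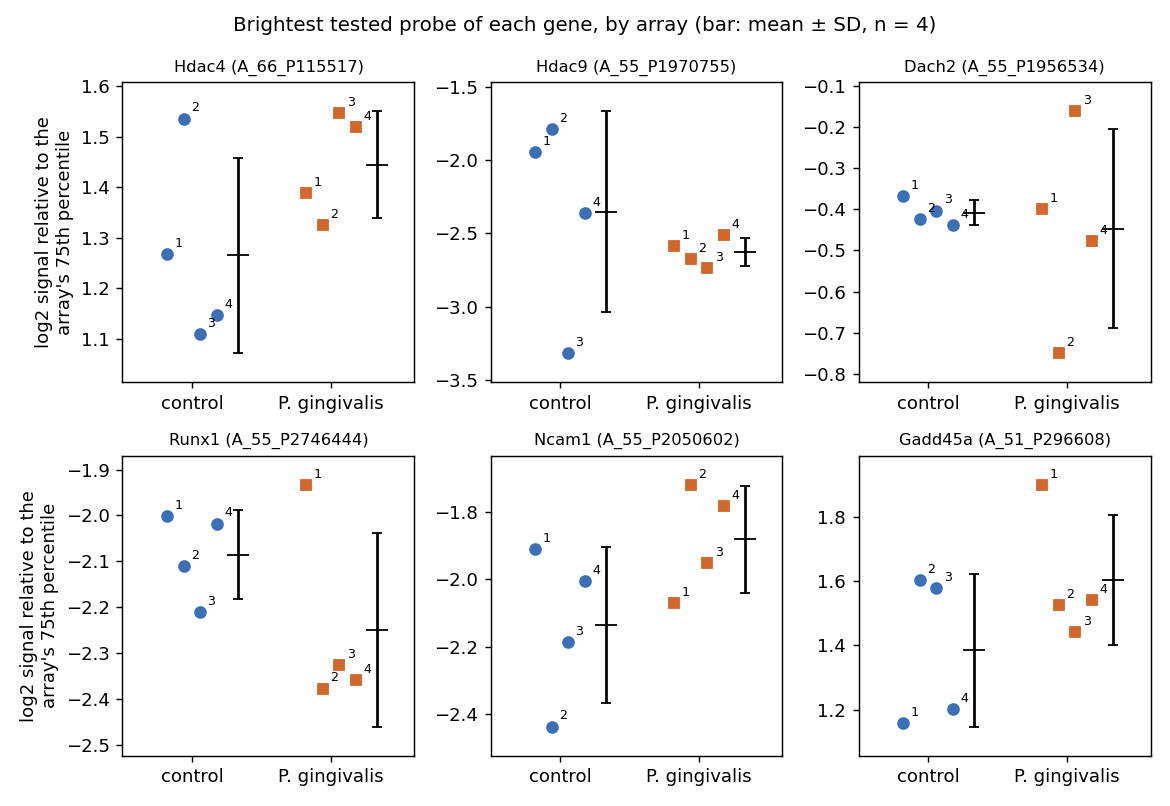
Log2 signal relative to the array's 75th percentile for the brightest tested probe of each gene in 4 control (circles) and 4 P. gingivalis arrays (squares), numbered by array, with mean ± SD; each panel has its own vertical scale. The groups overlap in 6 of 6 panels, and single arrays stand off, such as control 3 for Hdac9 (−3.32) and P. gingivalis 1 for Runx1 (−1.93).

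Set against the direction known from denervated muscle, Hdac4, Ncam1 and Gadd45a were on the higher side and Hdac9 (variant 2) and Dach2 on the lower side, while Runx1, which rises in such muscle, was lower; all 6 confidence intervals included 0. Under the value table's grouping Hdac4 and Gadd45a were lower and Dach2 was higher. Each of its groups mixes both scanner groups evenly, so those values cannot check a direction found with the scanner groups. The direction of these 3 genes depends on which labels are used, and which are right was not settled. The widths of the confidence intervals state what was measurable. For Hdac4 a rise of 1.34-fold lay at the limit of the interval, for Ncam1 and Gadd45a 1.46-fold, and for Runx1 1.06-fold. For the genes known to fall, the lower limit was 0.515-fold for Hdac9 (variant 2) and 0.812-fold for Dach2.

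Variation of the 6 genes across arrays was compared in pairs. Over the 8 arrays, 0 of the 15 pairs of brightest probes had a two-sided exact permutation p under 0.05 for Pearson's r, and the lowest adjusted p was 0.846. Hdac4 and its target Dach2 gave r = 0.23 (exact permutation p = 0.620, adjusted p = 0.846) and Spearman's rho = 0.19 (exact permutation p = 0.665, adjusted p = 0.915). That r was 0.44 without the 2 arrays farthest from the median of Hdac4 and 0.37 after each group was centred on its mean. Each slide row holds 4 arrays, too few for a value within a row.

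Different probes of 1 gene had higher correlations for Hdac4 than for Hdac9 and Ncam1. For the 3 Hdac4 pairs r was 0.81 to 0.91, with adjusted exact permutation p of 0.0268 to 0.100 over all 26 pairs. Their rho was 0.74 to 0.93, with adjusted exact permutation p of 0.0580 to 0.170. Without the 2 farthest arrays their r was 0.60 to 0.81. The Hdac9 pairs had r of −0.26 to 0.54 (6 pairs) and the Ncam1 pairs −0.49 to 0.35 (6 pairs), with 0.331 the lowest adjusted exact permutation p. Without the 2 farthest arrays r was −0.98 to 0.21 for Hdac9 and −0.76 to 0.33 for Ncam1. For the 10 Dach2 pairs r ran from 0.27 to 0.82, and 1 had an adjusted exact permutation p under 0.05. By rho the lowest adjusted exact permutation p of the Dach2 pairs was 0.170, and without the 2 farthest arrays r was −0.28 to 0.90. The Runx1 pair had r = 0.74 (adjusted exact permutation p = 0.140).

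Genes that work with Hdac4 and Dach2 lay on both sides of 0. In a list of class IIa deacetylases with Mef2, Dach1, Six4 and related genes, 10 of 10 were tested, 3 were higher and 7 lower, and 0 passed the adjusted threshold, with a median of −0.025 against −0.016 over all tested probes. At an unadjusted p under 0.05 limma called 1 higher and 2 lower of the 10, against 11.2% of all tested probes. Six4, a homeobox factor that drives fast-fibre and myogenic genes, lay between 2.17 and 2.67 in controls and between 1.62 and 1.93 in P. gingivalis arrays, without overlap (difference −0.61 ± 0.12 SE; limma adjusted p = 0.309), and its other tested probe differed by −0.35. Hdac5, another class IIa deacetylase, lay between 4.58 and 4.63 and between 4.36 and 4.54, also without overlap (−0.19 ± 0.061 SE, limma adjusted p = 0.367). By the brightest probe, groups did not overlap in 7.06% of all genes. Eya1, a cofactor of Six4, differed by 0.13, again without overlap (limma unadjusted p = 0.04998, adjusted p = 0.446). Its other tested probes went the other way, by −0.40 and −0.31. Their limma unadjusted p was lower, at 0.0134 and 0.00343 (adjusted p = 0.360 and 0.323). Myog, the gene of myogenin, was 1.20-fold (limma adjusted p = 0.563), between −1.37 and −0.62 in controls and between −0.84 and −0.61 in P. gingivalis arrays. Under the value table's grouping the differences of Hdac5 and Eya1 turned to 0.055 and −0.014, and that of Six4 was −0.022.

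The acetylcholine receptor and synapse genes, which follow myogenin in denervated fibres, gave no gene with a low p. Of 11 listed genes 10 were tested, 7 higher and 3 lower with a median of 0.039. Limma called 0 of the 10 at an unadjusted p under 0.05, against 11.2% of all tested probes. Chrng, the embryonic receptor subunit that returns after denervation, was below the detection rule and not tested. The lowest p was that of Chrnb1, a receptor subunit, at 0.17 ± 0.089 (SE; limma adjusted p = 0.500), and under the value table's grouping it was −0.033. Chrna1, the receptor subunit that binds acetylcholine, differed by −0.0054 ± 0.067 (SE, limma adjusted p = 0.985). Ache, another listed gene, was higher by 0.31 (limma adjusted p = 0.553). Its groups did not overlap, as in 7.06% of all genes.

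Among relatives and partners of Runx1 and Gadd45a, 8 of 9 genes were tested, 2 higher and 6 lower, with a median of −0.081. At an unadjusted p under 0.05 limma called 1 of the 8, lower, against 11.2% of all tested probes. That gene was Runx3, a second RUNX factor found mainly in lymphocytes and neurons. It lay between −3.06 and −3.02 in controls and between −3.35 and −3.13 in P. gingivalis arrays (−0.22 ± 0.064 SE, limma adjusted p = 0.346). Its groups did not overlap, as in 7.06% of all genes. Under normexp background correction the difference of this dim probe turned to 0.056, and under the value table's grouping it was −0.070.

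Other genes that rise in denervated muscle were divided evenly. Of 14 tested 7 were higher and 7 lower, with a median of −0.0011, and 0 passed the adjusted threshold. At an unadjusted p under 0.05, which 11.2% of all tested probes reached, limma called Myh8, the perinatal myosin (0.22 ± 0.069 SE; adjusted p = 0.355), and Ampd3, an AMP deaminase (0.27 ± 0.11 SE; adjusted p = 0.430), higher. It called Fbxo32, the atrophy ubiquitin ligase atrogin-1, lower (−0.26 ± 0.099 SE; adjusted p = 0.408). The groups of Myh8, Ampd3 and Fbxo32 did not overlap, as in 7.06% of all genes. The Myh8 probe averaged 9.23 in controls, above the fibre marker Myh4 at 9.02, and which myosins it reads was not tested. Its difference was 0.10 under quantile normalization (limma unadjusted p = 0.137). In the value table with columns paired to arrays it was 0.090 (limma unadjusted p = 0.247). Under the value table's grouping Ampd3 turned to −0.14, Myh8 was 0.019 and Fbxo32 was −0.088.

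**Figure D4:**
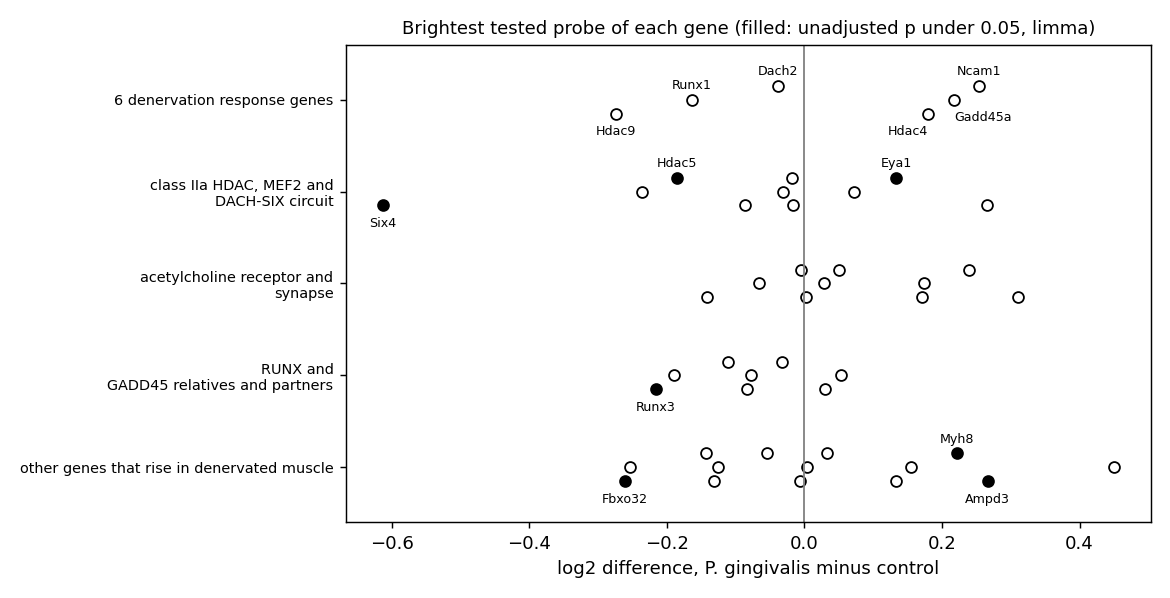
Log2 difference (P. gingivalis minus control) of the brightest tested probe of each gene, for the 6 genes and the 4 lists of related genes; filled points have an unadjusted limma p under 0.05. Filled points lie on both sides of 0, with Six4 (−0.61) the farthest, and none passed the adjusted threshold. The other tested probes of Eya1, not drawn, lay below 0 (−0.40 and −0.31).

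Markers of other cells that carry some of these genes were read beside them. For Ncam1, 6 of 7 Schwann cell genes were tested, with a summed level of 3.59 to 3.91 in controls and 3.18 to 4.29 in P. gingivalis arrays, where 1 is an array's 75th percentile, and Cdh19 was well above background on no array. For the satellite cell genes it was 5 of 6, with sums of 6.10 to 6.59 and 5.65 to 6.35. Among them Pax7 was well above background on 4 control and 4 P. gingivalis arrays (difference −0.084; limma adjusted p = 0.876). Myf5 was well above background on no array. For Runx1, 6 of 7 leukocyte genes were tested, with sums of 18.8 to 20.9 in controls and 20.8 to 23.5 in P. gingivalis arrays, and Spi1 was well above background on no array. Of those 6 leukocyte genes 2 were higher and 4 lower, with a median difference of −0.026. The sums were carried mainly by Itgam, an integrin of myeloid cells, whose brightest probe differed by 0.18 and whose other tested probe by −0.58. The 5 tested of 6 neutrophil genes summed to 0.645 to 3.57 in controls and 0.482 to 0.665 in P. gingivalis arrays, with Ngp well above background on no array. S100a8 and S100a9 differed by −3.42 and −2.93 (limma adjusted p = 0.329 for each). Ly6g, Camp and Mmp8 differed by −0.10, −0.036 and −0.32 (limma adjusted p = 0.805, 0.897 and 0.561). S100a8 was well above background on 4 control and 2 P. gingivalis arrays. All 6 fibroblast genes were higher, 3 of them at an unadjusted limma p under 0.05 (11.2% of all tested probes), with sums of 135 to 176 and 171 to 197. These sums were carried mainly by Dcn, which was not among the 3 and differed by 0.13 (limma adjusted p = 0.567). Of 5 tendon genes the 4 tested were higher, with sums of 19.1 to 27.4 and 27.7 to 35.7 that did not overlap. The tendon sums were carried mainly by Thbs4. Its own log2 values overlapped, with 4.05 to 4.55 in controls and 4.53 to 4.99 in P. gingivalis arrays. All 5 endothelial genes were lower, with sums of 9.36 to 11.7 and 7.87 to 10.3. At an unadjusted p under 0.05, limma called 1 of them, Kdr, against 11.2% of all tested probes. Kdr differed by −0.59 (limma unadjusted p = 0.00378, adjusted p = 0.323). Pecam1, Cdh5, Tek and Emcn differed by −0.042, −0.052, −0.011 and −0.034 (limma adjusted p of 0.888 to 0.980). The median over all tested probes was −0.016. The part of these cells in the values of the 6 genes was not tested.

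For each of the 6 genes the tested gene whose brightest probe followed it most closely over the 8 arrays was also found. By Pearson's r it was Zfp213 for Hdac4 (0.961), Agbl3 for Hdac9 (0.969), Pdzd7 for Dach2 (0.973), Ndufa3 for Runx1 (0.987), Mycbp2 for Ncam1 (0.957) and Kctd21 for Gadd45a (0.956). Each is the highest of all tested genes over only 8 arrays and is given as a description. None of the 6 is a gene of the lists above.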

How the data were processed

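Tibialis anterior RNA of 4 control and 4 P. gingivalis samples was labelled with Cy3 (200 ng input) and hybridised to 8 arrays of 1 slide, per the labels' protocols. The authors' deposited spot intensities came from Agilent Feature Extraction, version 11.1 per the submitters' processing notes and 11.0.1.1 per the file headers; they were background-subtracted and detrended but not normalized between arrays. The deposited value table holds log2 signals of 24764 probes, with column medians of 7.357 to 7.374; its scaling is not stated in these sources, and 10 of the 25 probes are in it.

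Here log2 of the processed intensity less each array's 75th percentile was used, and spots of a probe were averaged. A probe was tested when well above background on at least 4 arrays, counted where over 50% of its spots were. A gene's brightest tested probe represented it. The comparison used lmFit and eBayes of limma 3.58.1 under R 4.3.3 (no covariate; Benjamini-Hochberg over 31649 probes; threshold 0.05; 95% confidence intervals), checked on simulated data. Column-to-array matches had correlations of 0.833 to 0.88 (next best at most 0.0784). Spots well above background made up 56.3% to 59.3% of each array, and the number of arrays limits precision.

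The members and lists were chosen with earlier results of these data known. Named genes were the 6 members and the gene most correlated with each member. Each list gene with an unadjusted p under 0.05, or else the one with the lowest p, was also named. Ache, Chrna1, Chrng and Myog were named in addition, after their values were seen, as were the marker genes. One gene of a list is not reported here and was left out of its counts. For gene names the RefSeq table of assembly GRCm38.p6 was used. Alternatives covered background correction, scaling, filter, variance trend, probe choice, the value table, its groups, and leaving out arrays. Figures were drawn with matplotlib 3.10.9.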

Additional observations from a re-analysis of the deposited data

Results flagged for a closer look

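Within groups, 78 sets of 4 arrays (both groups for each tested member probe and named gene) were examined for an array standing apart, by the gap to its nearest neighbour over the whole range against Dixon's critical value. Chance flags about 1 in 20 such sets. In Runx1 A_55_P2746444 the ratio was 0.886 in the P. gingivalis group, where P. gingivalis 1 read −1.93 and the other 3 arrays −2.38 to −2.33. In the neutrophil gene S100a9 the ratio was 0.857 in the control group, where values ran from −2.64 to 1.20.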

How the results depend on the processing

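Of 126 values of the 6 genes under 21 alternatives, 117 kept their direction and 9 did not, and no adjusted limma p was below 0.137. The value table's own labels turned Hdac4 (−0.021), Dach2 (0.058, by A_55_P2745175), Gadd45a (−0.069), Hdac9 A_55_P2497024 (−0.0010), Hdac5 (0.062), Six4 (0.017) and Eya1 (−0.016). Scanner values with those groups turned Hdac4 (−0.049), Dach2 (0.11), Gadd45a (−0.11), Hdac9 A_55_P2497024 (−0.0050), Chrnb1 (−0.033), Hdac5 (0.055), Eya1 (−0.014) and Ampd3 (−0.14). The 4 arrays with the same group in both sources turned Dach2 (0.076), as did leaving out P. gingivalis 2 (0.062; the range without 1 array was −0.13 to 0.062); the mean of all tested probes turned Hdac9 (9.65e-05), and normexp turned Runx3 (0.056). Under normexp Hdac9 A_55_P2497024 passed, at 0.35 with an adjusted limma p of 0.0491; without 1 array it was 0.79 to 0.99, and 0.0491 was the lowest adjusted limma p over its alternatives, with 0.999951 the highest. With value table columns matched to arrays it was 0.40, with a limma adjusted p of 0.165.

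Against 0 probes past the adjusted limma threshold and 3544 at an unadjusted p under 0.05, normexp called 14 and 9094, no filter 2 adjusted, a variance trend 2 adjusted and, after matching, the value table gave 1 adjusted. The value table's labels called 906 and its groups on scanner values 1224 at an unadjusted p under 0.05. Of the 3544, 1532 were higher and 2012 lower; the split was 7140 and 1954 with normexp, 2112 and 1279 with median scaling, and 1873 and 1693 with quantile normalization. Member probes at an unadjusted p under 0.05 numbered 4 of 19 with normexp (28.7% of all probes), 2 of 19 with median scaling (10.7%), 2 of 10 in the matched value table (11.6%), 4 of 19 on the 4 shared arrays (9.12%) and 1 to 3 of 19 without 1 array (8.91% to 12.7%), against 1. Genes with groups apart numbered 2 of 6 on the 4 shared arrays (44.0% of all genes) and 0 to 1 of 6 without 1 array (10.1% to 13.3%), against 0. The causes were not tested.

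Same-numbered samples, which also shared a column of the slide, had correlated deviations of only 0.0069 to 0.0629. The highest value with another number was 0.0068 to 0.134 across the controls. No pairing by number was seen in these values, though a low correlation cannot exclude one. With the replicate number as a block 3406 probes had an unadjusted limma p under 0.05 and 0 passed adjusted. The 75th percentile without outlier spots was an alternative chosen after seeing the data. Signal limits the dim Hdac9 probes, which lay near background.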
